A study of Mus musculus with 6 samples.

Results

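CC chemokines are small secreted proteins that carry a pair of adjacent cysteines and draw leukocytes along a gradient through G protein-coupled receptors. In the liver, stellate cells, macrophages and endothelial cells can all make them, and their genes are known as targets of inflammatory signalling through NF-kB and AP-1. Ccl2 and Ccl7 attract monocytes through the receptor Ccr2, Ccl11 attracts eosinophils through Ccr3, Ccl3, Ccl4 and Ccl5 attract T cells and monocytes, Ccl6 and Ccl9 are rodent ligands of Ccr1, and Ccl20 acts through Ccr6.

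The 9 genes described here (Ccl2, Ccl7, Ccl11, Ccl5, Ccl9, Ccl6, Ccl3, Ccl4 and Ccl20) were chosen by symbol from the 24346 listed for each library. The RNA came from hepatic stellate cells, pericytes that store vitamin A beside the liver sinusoids, of wild type C57BL/6 mice aged 35 weeks. Cells were obtained by liver perfusion at 37 or at 6 degrees from 3 sources: the tumour region of livers of mice on a high fat diet, tissue outside the tumour of such livers (the non-tumour region), and livers of mice on a normal diet. Every library came from cells sorted as CD31-/CD45.2-/CD49a+, a gate that should remove endothelial cells and leukocytes. Each of the 6 combinations had 1 library, and the labels do not say how many livers it held, whether livers were pooled or whether libraries came from separate animals. Levels are given as FPKM, which divides the fragments of a gene by its transcript length and by the fragments mapped in the library, so that levels of different genes can be compared.

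The libraries held an estimated 1.64e+07 to 2.3e+07 fragments, and a single fragment of a 1 kb transcript equalled 0.0434 to 0.061 FPKM. All 12 stellate cell markers listed for the label check (Lrat, Reln, Des and others) were detected at a mean of at least 1 FPKM, with summed levels of 12000 to 21190 FPKM per library. Macrophage transcripts were also present. The 20 macrophage and Kupffer cell markers summed to 1172, 63.5 and 62.5 FPKM in the tumour, non-tumour and normal diet libraries of 37 degrees, against 3094, 1004 and 728 FPKM in those of 6 degrees. Ptprc, which encodes CD45, the antigen of the negative sort, had 5.44, 0.375 and 0.397 FPKM in the 37 degree libraries, against 16.5, 2.73 and 1.75 FPKM in the 6 degree ones, in the same order of sources. At 37 degrees the non-tumour library listed the macrophage markers Fcgr1, Timd4, Marco and Cd163 at 0. In such bulk libraries, fewer cells of a type and less RNA per cell cannot be told apart.

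The family signature can be read in the coding sequences of these transcripts, which are shown because the cysteine pair is what groups the 9 genes. Each line gives 42 bases of coding sequence from the GENCODE M21 transcripts, with the 2 adjacent cysteine codons in capitals.
Ccl2: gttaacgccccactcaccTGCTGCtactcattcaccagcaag
Ccl7: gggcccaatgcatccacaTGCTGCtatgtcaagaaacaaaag
Ccl11: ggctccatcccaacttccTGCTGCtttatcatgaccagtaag
Ccl5: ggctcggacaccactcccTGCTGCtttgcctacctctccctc
Ccl9: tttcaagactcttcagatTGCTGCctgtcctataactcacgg
Ccl6: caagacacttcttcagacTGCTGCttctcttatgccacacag
Ccl3: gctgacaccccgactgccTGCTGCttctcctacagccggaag
Ccl4: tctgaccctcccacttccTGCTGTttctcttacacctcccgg
Ccl20: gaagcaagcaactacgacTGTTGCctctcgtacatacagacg

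The pair lies at codons 32 to 35 in 7 of these genes, but at codons 50 and 51 of Ccl6 and codons 57 and 58 of Ccl9, which encode longer amino-terminal stretches. Ccl6 and Ccl9 shared 69.3% of aligned coding bases, Ccl3 and Ccl4 shared 69.6%, and Ccl2 and Ccl7 shared 65.3%. The longest identical run between transcripts of any pair of the 9 genes was 25 bases, between Ccl6 and Ccl9.

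The genes other than Ccl20 lie on chromosome 11 in 2 groups (GRCm38, GENCODE M21). Ccl2 (82035571 to 82037453, plus strand), Ccl7 (82045712 to 82047525, plus) and Ccl11 (82057823 to 82062955, plus) are neighbours. Further along lie Ccl5 (83525778 to 83530518, minus), Ccl9 (83572919 to 83578636, minus), Ccl6 (83587882 to 83593087, minus), Ccl3 (83647844 to 83649355, minus) and Ccl4 (83662584 to 83664683, plus). Ccl20 is on chromosome 1 (83116766 to 83119167, plus). Gm17268 overlaps Ccl2 and E230016K23Rik overlaps Ccl6 on the other strand, and the use of strand in quantification is not given in the sources used here.

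Promoter windows of 250 bases before to 50 bases after the start were in the RefSeq table (GRCm38.p6) for 4 of the 9 genes (Ccl3, Ccl6, Ccl9 and Ccl20). The windows of Ccl6 and Ccl9 are shown because the levels of these neighbouring genes varied alike across the libraries (Pearson r = 0.94). Ccl3 varied with Ccl9 about as closely (r = 0.93), and its window was not compared. How often other windows share such runs was not counted, and a link to the levels was not tested. Capitals mark runs of at least 10 bases that occur in both windows.
Ccl6, chr11:83593038-83593337, minus strand: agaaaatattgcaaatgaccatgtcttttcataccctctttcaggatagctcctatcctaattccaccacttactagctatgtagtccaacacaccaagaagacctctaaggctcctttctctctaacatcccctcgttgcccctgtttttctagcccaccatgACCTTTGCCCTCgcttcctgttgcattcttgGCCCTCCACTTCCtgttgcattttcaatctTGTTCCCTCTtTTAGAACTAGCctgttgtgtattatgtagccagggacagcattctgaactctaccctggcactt
Ccl9, chr11:83578587-83578886, minus strand: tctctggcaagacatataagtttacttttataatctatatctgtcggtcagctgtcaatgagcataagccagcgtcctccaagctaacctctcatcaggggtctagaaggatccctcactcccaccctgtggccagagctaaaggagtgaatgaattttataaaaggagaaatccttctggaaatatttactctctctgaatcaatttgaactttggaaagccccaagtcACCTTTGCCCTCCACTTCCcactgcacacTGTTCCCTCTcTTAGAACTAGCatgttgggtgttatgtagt

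The longest run common to both windows was GCCCTCCACTTCC. Motifs of NF-kB (GGG and CC with 5 bases of any kind between them), AP-1 (TGANTCA) and C/EBP (TTGCNNAA) were searched on both strands. The Ccl9 window held 1 NF-kB match (GGAAAGCCCC at -35 from the start) and 1 AP-1 match (TGAATCA at -53). The Ccl20 window held 3 overlapping NF-kB matches between -82 and -80, and the Ccl3 and Ccl6 windows held no match to these letters. Of 32851 windows of this length, 50.8% held the NF-kB letters, 7.8% the AP-1 letters and 10.8% the C/EBP letters. In the 3′ UTRs, the destabilising pentamer ATTTA occurred at least 5 times per kb in Ccl3, Ccl20, Ccl11 and Ccl4 (12.22, 8.57, 7.76 and 6.62 per kb), against a median of 1.37 per kb over 18533 genes, of which 7.3% reached 5 per kb. Ccl5 held none, and the other 4 genes held 2.03 to 4.6 per kb.

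Ccl2 was the most abundant of the 9 transcripts in every library, with a mean of 398 FPKM over the 6. Among all symbols it ranked 93, 164 and 446 by FPKM in the tumour, non-tumour and normal diet libraries of 37 degrees, and 204, 183 and 917 in those of 6 degrees. Ccl7 came next in every library (mean 104 FPKM). Ccl6 (30.6 FPKM) stood below Ccl7 in all 6 libraries, and Ccl4 (16.1 FPKM) stood above Ccl6 in the tumour library of 37 degrees and below it in the other 5. Ccl11, Ccl5 and Ccl3 averaged 7.53, 7.37 and 6.24 FPKM, with ranges that overlapped, and their order changed from library to library. Ccl9 averaged 1.93 FPKM. Ccl20 was listed at 0 in all 37 degree libraries and in the normal diet library of 6 degrees, and at 0.393 and 0.0785 FPKM in the tumour and non-tumour libraries of 6 degrees, an estimated 10.7 and 2.1 fragments. It did not reach the mean of 1 FPKM required for testing, so 8 of the 9 genes were tested among 11558.

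**Figure D1:**
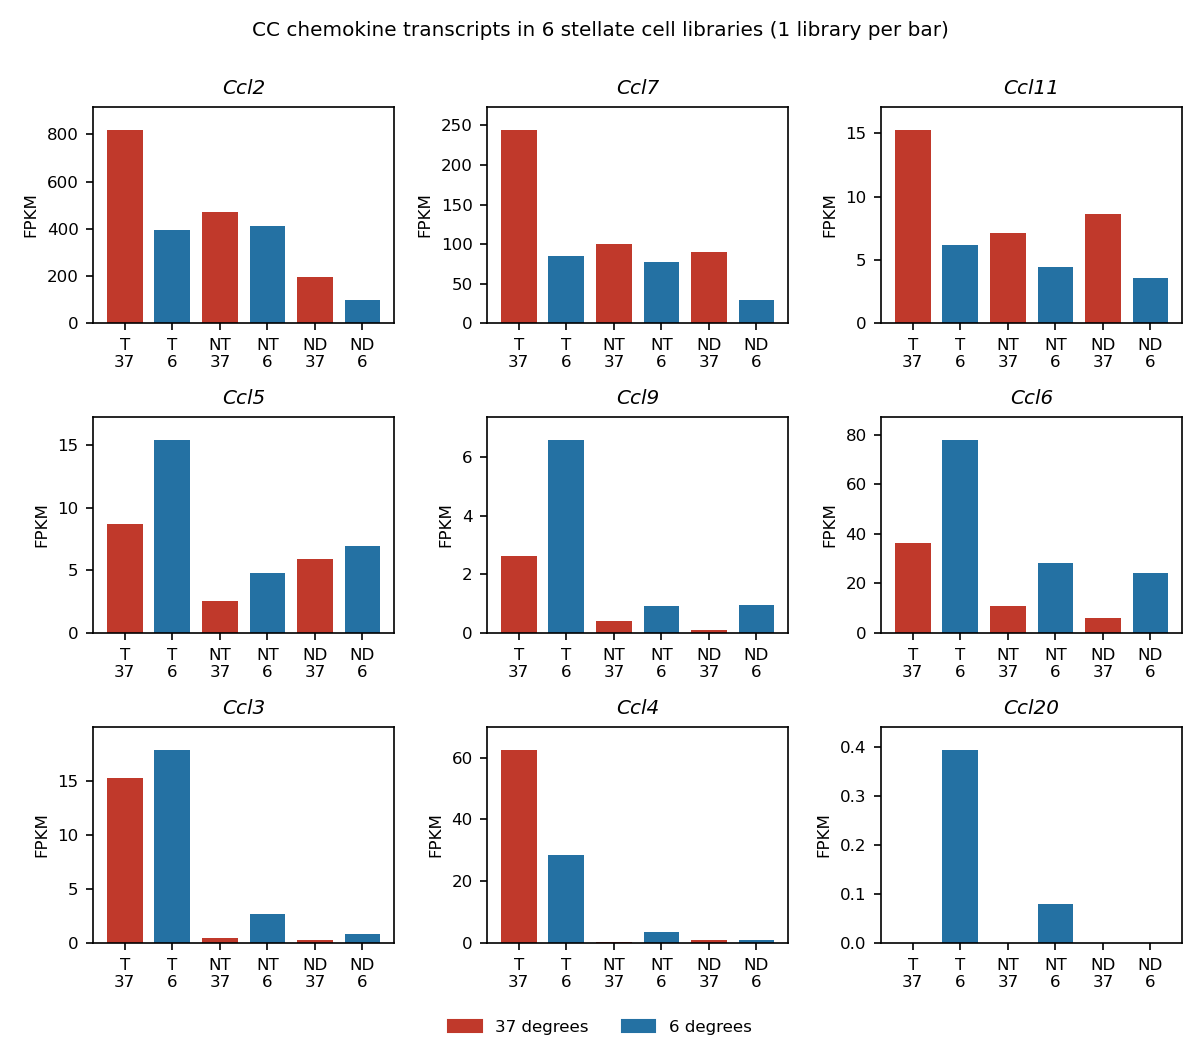
FPKM of each CC chemokine transcript (vertical axis, separate linear scale per gene, starting at 0) in the tumour (T), non-tumour (NT) and normal diet (ND) libraries of 37 degrees (red) and 6 degrees (blue), 1 library per bar and so without error bars. Ccl2, Ccl7 and Ccl11 are higher at 37 degrees in each source, while Ccl6, Ccl9, Ccl3 and Ccl5 are lower.

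The study's stated question was the side effect of warm isolation. The 3 neighbouring genes Ccl2, Ccl7 and Ccl11 were higher at 37 than at 6 degrees in every source, Ccl3, Ccl5, Ccl6 and Ccl9 of the other group were lower in every source, and Ccl4 had no common direction. By limma on log2(FPKM + 1), with source and temperature as terms, Ccl11 rose and Ccl6 fell past the threshold (Benjamini-Hochberg adjusted p under 0.05 over all genes tested). That is 2 of the 8 genes tested, against 5.13% of all genes (0.51% higher and 4.62% lower). With p left unadjusted, 3 of them had a higher and 4 a lower value at p under 0.05, as 20.6% of all genes did in either direction. Of all genes tested, 23.4% were higher in all 3 sources and 21.8% lower. The median log2 difference was -0.40 over the 8 genes and 0.01 over all genes.

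Ccl2, the main monocyte attractant, was at 818, 472 and 196 FPKM in the tumour, non-tumour and normal diet libraries of 37 degrees, against 394, 411 and 98.0 FPKM at 6 degrees. The 37 degree library was higher by 2.08-fold in the tumour region and 2.01-fold on normal diet but by 1.15-fold in the non-tumour region, and the ranges of the temperatures overlapped. The fitted log2 difference of 0.75 ± 0.18 (SE, 3 pairs) missed the threshold (limma adjusted p = 0.0930). Without the non-tumour library of 37 or of 6 degrees Ccl2 passed (adjusted p = 0.0434 and 0.0477).

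Ccl7, a second ligand of Ccr2, was at 244, 100 and 89.6 FPKM at 37 degrees, against 85.4, 77.1 and 29.3 FPKM at 6 degrees, in the same order of sources. The lowest library of 37 degrees was above the highest of 6 degrees. As for Ccl2, the non-tumour pair was the closest, with a ratio of 1.30 beside 2.86 in the tumour region and 3.06 on normal diet. The log2 difference was 1.15 ± 0.25 (limma adjusted p = 0.0700), and it passed without either non-tumour library (adjusted p = 0.0406 and 0.0368).

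Ccl11, the eotaxin gene, was at 15.3, 7.12 and 8.60 FPKM at 37 degrees, against 6.21, 4.40 and 3.59 FPKM at 6 degrees. Again no 37 degree library reached down to the 6 degree range, and the ratios were 2.46, 1.62 and 2.40. Its increase of 0.94 ± 0.15 passed the test (limma adjusted p = 0.0297). It no longer passed when any 1 of the 6 libraries was left out (adjusted p from 0.0651 to 0.102) or when no filter on low genes was used (0.101). Ccl7 and Ccl11 were thus the members whose temperature ranges did not overlap, 2 of 8 higher beside 8.31% of all genes, and no member was lower without overlap (9.4% of all genes).

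Ccl6, a Ccr1 ligand made by myeloid cells in mice, was at 36.5, 10.8 and 6.01 FPKM at 37 degrees, against 77.9, 28.1 and 24.1 FPKM at 6 degrees. It was lower in every pair, with ratios of 0.468, 0.386 and 0.249, although the tumour library of 37 degrees stood above the non-tumour and normal diet libraries of 6 degrees. The decrease was -1.41 ± 0.16 on the log2 scale (limma adjusted p = 0.0130). Without the non-tumour library of 37 or of 6 degrees it did not pass (adjusted p = 0.0804 and 0.0810), nor with no filter (0.0591), and neither Ccl6 nor Ccl11 passed when source was left out of the model (0.541 and 0.331).

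Its neighbour Ccl9 was at 2.64, 0.399 and 0.116 FPKM at 37 degrees, against 6.58, 0.908 and 0.965 FPKM at 6 degrees. The value of 0.116 FPKM stands for an estimated 6.7 fragments. The log2 difference was -0.77 ± 0.17 (limma adjusted p = 0.0760).

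Ccl5, which attracts T cells, was at 8.72, 2.52 and 5.87 FPKM at 37 degrees, against 15.4, 4.81 and 6.94 FPKM at 6 degrees, a difference of -0.56 ± 0.15 (limma adjusted p = 0.115). The 12 markers of T and NK cells listed in the files, cells known as sources of Ccl5, summed to 8.53, 2.74 and 2.27 FPKM at 37 degrees, against 14.8, 3.31 and 3.62 FPKM at 6 degrees. Their part in the Ccl5 values was not tested. Ccl3, an inflammatory chemokine of macrophages, was at 15.2, 0.462 and 0.323 FPKM at 37 degrees, against 17.8, 2.72 and 0.870 FPKM at 6 degrees, with a difference of -0.69 ± 0.24 (limma adjusted p = 0.194). Ccl4, its close relative, was at 62.5, 0.239 and 1.04 FPKM at 37 degrees, against 28.4, 3.52 and 0.951 FPKM at 6 degrees. It was higher at 37 degrees in the tumour region, lower in the non-tumour region, where 0.239 FPKM stands for an estimated 2.6 fragments, and near equal on normal diet. Its difference was -0.23 ± 0.54 (limma adjusted p = 0.851), and 0.59 without either non-tumour library.

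**Figure D2:**
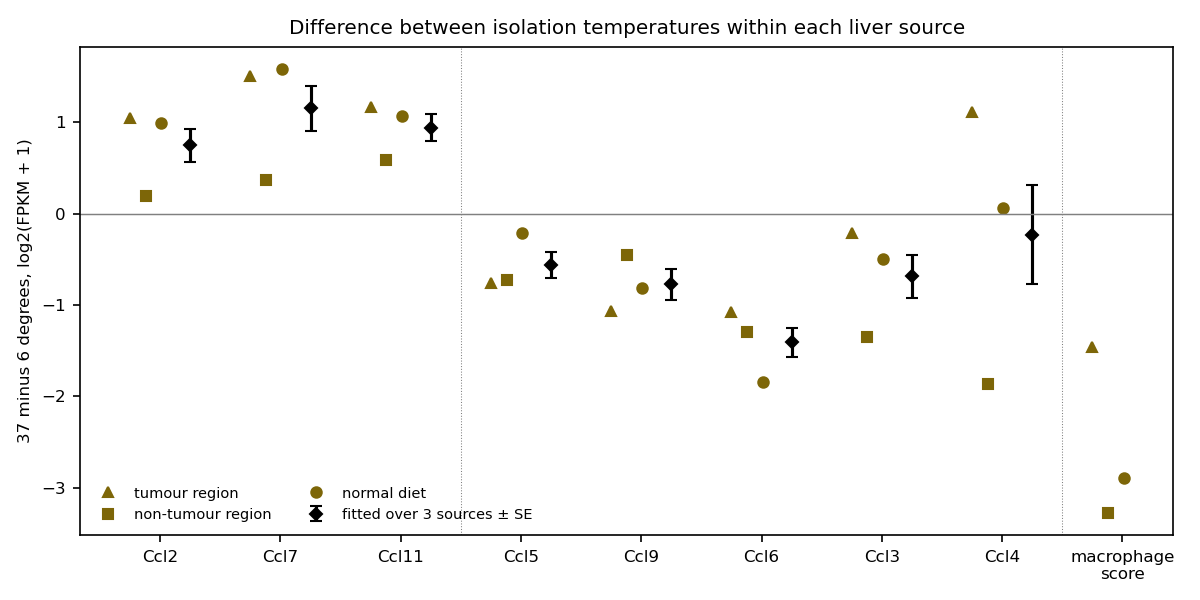
Difference between 37 and 6 degrees on the log2(FPKM + 1) scale (vertical axis) for each tested CC chemokine and for the macrophage score in the tumour (triangle), non-tumour (square) and normal diet (circle) pair, with the fitted value over the 3 sources and its standard error in black. Ccl2, Ccl7 and Ccl11 lie above 0 in every pair, the macrophage score, Ccl5, Ccl9, Ccl6 and Ccl3 lie below it, and Ccl4 spans both sides.

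These differences stood beside a fall of macrophage transcripts at 37 degrees. Of 18 tested macrophage and Kupffer cell markers, 14 fell and none rose, and the macrophage score (their mean log2(FPKM + 1)) was 4.86, 1.65 and 1.73 at 37 degrees, against 6.33, 4.92 and 4.63 at 6 degrees, in the tumour, non-tumour and normal diet libraries. All 12 endothelial markers tested fell as well, to sums of 518, 564 and 95.0 FPKM at 37 degrees, against 1837, 3675 and 1445 FPKM at 6 degrees. Of the 12 stellate cell markers 4 rose (Lrat, Hgf, Hand2 and Cygb) and none fell, with a median of 0.37, and 11 were higher with p unadjusted. The sign was that of Ccl2, Ccl7 and Ccl11, but the sizes across sources were ordered otherwise. The median of the stellate list was 0.41, 0.48 and 0.30 in the tumour, non-tumour and normal diet pairs. Ccl2, Ccl7 and Ccl11 each differed least in the non-tumour pair (0.20, 0.37 and 0.59). The part of stellate cells in those values was not tested. Ccl2, Ccl7 and Ccl11 had their higher values in the libraries with the lower score in each source. Ccl6, Ccl9, Ccl3 and Ccl5 moved with the score, and the part of macrophage RNA in their values was not tested.

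Set against the score, Ccl6 was nearly constant at 6 degrees. Its log2(FPKM + 1) minus the score was -0.02, -0.06 and 0.02 in the tumour, non-tumour and normal diet libraries of 6 degrees, although Ccl6 itself was 3.23-fold higher in the tumour region than on normal diet there. At 37 degrees the same difference was 0.36, 1.92 and 1.08. For Ccl2 it was 4.81, 7.24 and 5.90 at 37 degrees, against 2.30, 3.76 and 2.001 at 6 degrees, and for Ccl7 it was 3.07, 5.01 and 4.77 at 37 degrees, against 0.11, 1.37 and 0.29 at 6 degrees. Each tested member stood higher relative to the score at 37 degrees in each source. With the score subtracted from every gene before the fit, 7 of the 8 passed as higher by limma, as did 96.1% of all genes, since the score itself fell by 2.54. That share says nothing particular to chemokines. Ccl6 was the exception, with the smallest difference among the 8 (1.14, adjusted p = 0.118), while Ccl7 (3.70), Ccl11 (3.49) and Ccl2 (3.29) had the largest. The standard errors were nearly equal between members (0.699 for Ccl2 and 0.741 for Ccl3), since the same score enters every gene. Moderation therefore pools nearly all genes into 1 variance (23120 total degrees of freedom), so the p-values of the fits relative to the score rest on that pooling, and without empirical Bayes moderation no gene passed. Values under 1 FPKM, such as those of Ccl3 in the 37 degree non-tumour and normal diet libraries, can fall little further on this scale.

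**Figure D3:**
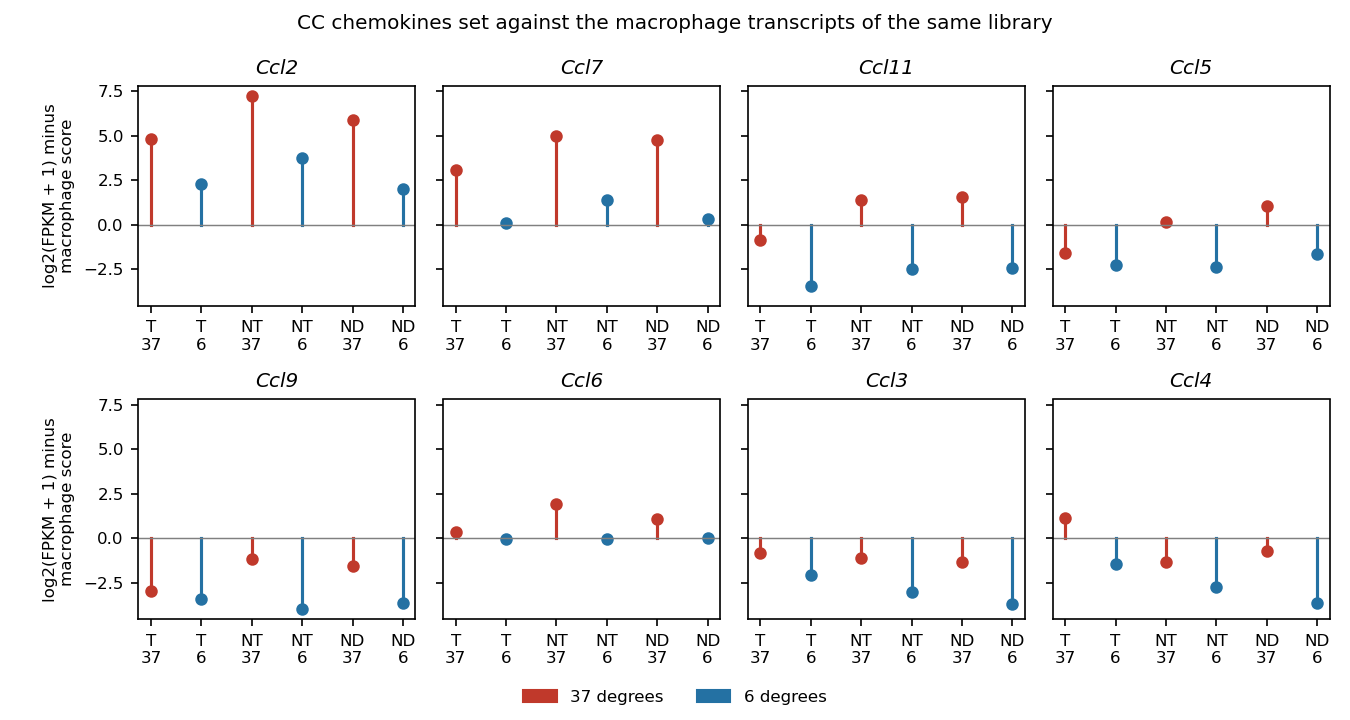
Log2(FPKM + 1) of each tested CC chemokine minus the macrophage score of the same library (vertical axis) in the tumour (T), non-tumour (NT) and normal diet (ND) libraries of 37 degrees (red) and 6 degrees (blue), with 1 library per point. Ccl6 lies within 0.06 of the score in the 6 degree libraries, and Ccl2 lies 2.001 to 7.24 above it in all 6.

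The tumour region was compared with normal diet livers over 2 pairs of libraries, 1 at each temperature. All 8 tested members were higher in the tumour region at both temperatures (35.8% of all genes were), and 6 of the 8 rose past the threshold by limma, against 9.35% of all genes called in either direction (6.07% higher and 3.28% lower). All 8 had an unadjusted p under 0.05, beside 26.0% of all genes. The median log2 difference was 1.92 over the 8 and 0.01 over all genes. In 6 of the 8 genes (Ccl2, Ccl3, Ccl4, Ccl5, Ccl6 and Ccl9) both tumour libraries exceeded both normal diet libraries, as in 25.1% of all genes.

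The related genes Ccl4 and Ccl3 rose most. Ccl4 was at 62.5 and 28.4 FPKM in the tumour libraries of 37 and 6 degrees, against 1.04 and 0.951 FPKM in those of normal diet, a log2(FPKM + 1) difference of 4.43 ± 0.67 (SE, 2 pairs; limma adjusted p = 0.0199). Ccl3 was at 15.2 and 17.8 FPKM, against 0.323 and 0.870 FPKM, a difference of 3.47 ± 0.29 (limma adjusted p = 0.00717). The FPKM ratios at 37 and 6 degrees were 59.9 and 29.8 for Ccl4 and 47.2 and 20.5 for Ccl3, over normal diet values that rest on an estimated 4.7 to 15.3 fragments. Ccl4 missed the threshold without either normal diet library or the tumour library of 37 degrees (adjusted p = 0.0508 to 0.104), and narrowly with a pseudocount of 0.1 or no filter (0.0512 and 0.0650).

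Ccl6 was at 36.5 and 77.9 FPKM in the tumour region, against 6.01 and 24.1 FPKM on normal diet (2.03 ± 0.19, limma adjusted p = 0.00832). Ccl2 was at 818 and 394 FPKM in the tumour region, against 196 and 98.0 FPKM on normal diet, and both ratios were close to 4 (4.16 and 4.02). Its increase was 2.02 ± 0.22 (limma adjusted p = 0.0103), with an adjusted p of 0.0528 without the normal diet library of 6 degrees. Ccl9 rose by 1.83 ± 0.21 (limma adjusted p = 0.0115), with values of 2.64 and 6.58 FPKM in the tumour region, against 0.116 and 0.965 FPKM on normal diet; without either normal diet library it did not pass (adjusted p = 0.0668 and 0.0588). Ccl7 was at 244 and 85.4 FPKM, against 89.6 and 29.3 FPKM, so the warm normal diet library stood above the cold tumour library. Its increase of 1.48 ± 0.30 was just under the threshold (limma adjusted p = 0.0441) and was lost under most alternatives. Ccl5 (0.77 ± 0.18) and Ccl11 (0.71 ± 0.18) did not pass (adjusted p = 0.0608 and 0.0768).

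Ccl3 and Ccl6 passed this comparison under every alternative tried. Without the normal diet library of 6 or of 37 degrees, 2 and 3 of the 8 genes passed.

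Macrophage transcripts were higher in the tumour region too: 11 of 18 tested markers passed as higher and none as lower. With p unadjusted 17 were higher and 1, Timd4 (-0.91), was lower, and the score differed by 2.42. Relative to the score, Ccl4 was the member that stayed higher (2.02, limma adjusted p = 0.0297), beside 0.0519% of all genes higher and 91.1% lower, and the other 7 did not pass. Without empirical Bayes moderation, neither Ccl4 nor any other gene passed in that fit. Markers of some other cells were higher as well. Of the 12 endothelial markers 2 rose (median 1.22, 11 higher with p unadjusted), of 5 tested monocyte and dendritic cell markers 3 rose (median 1.27), and of 3 tested neutrophil markers 2 rose (median 3.15). The endothelial list summed to 518 and 1837 FPKM in the tumour region, against 95.0 and 1445 FPKM on normal diet, and the neutrophil list to 11.8 and 63.2 FPKM, against 1.72 and 3.22 FPKM. Of the 12 stellate cell markers 3 rose and 3 fell (median -0.04, 3 higher and 5 lower with p unadjusted). Of 7 tested hepatocyte markers 1 fell, as did the 1 tested mesothelial marker. The part of any of these cells, macrophages included, in the tumour values was not tested.

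Between the non-tumour region on the high fat diet and normal diet livers, Ccl2 was the member that passed the test. This comparison uses the same normal diet libraries as the one above. Ccl2 was at 472 and 411 FPKM in the non-tumour libraries of 37 and 6 degrees, against 196 and 98.0 FPKM on normal diet, and the groups did not overlap. Its increase of 1.66 ± 0.22 passed (limma adjusted p = 0.0181), making 1 of 8 genes beside 5.56% of all genes called in either direction and 2.98% higher. It did not pass without any 1 of these 4 libraries (adjusted p = 0.0668 to 0.1001), nor with no filter (0.0686). The macrophage score differed by 0.11 in this comparison, and none of the 18 macrophage markers passed by limma (2 higher and 1 lower with p unadjusted). Endothelial markers moved with Ccl2: 3 of 12 (Lyve1, Tek and Tie1) rose, with a list median of 1.94, and all 12 were higher with p unadjusted. They summed to 564 and 3675 FPKM in the non-tumour region, against 95.0 and 1445 FPKM on normal diet. Of the 12 stellate cell markers 3 rose and none fell, with a median of 0.03 (3 higher and 3 lower with p unadjusted). The stellate list summed to 21190 and 14520 FPKM, against 13460 and 12000 FPKM on normal diet. The part of either cell type in the Ccl2 values was not tested.

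Ccl5 was the member that was lower in the non-tumour region without overlap, at 2.52 and 4.81 FPKM, against 5.87 and 6.94 FPKM on normal diet (-0.71 ± 0.18, limma adjusted p = 0.0938). Non-overlapping lower values were seen in 21.3% of all genes and higher ones in 24.1%. Ccl7 was at 100 and 77.1 FPKM, against 89.6 and 29.3 FPKM (0.76 ± 0.30, limma adjusted p = 0.230), with nearly all of its difference at 6 degrees. Relative to the score, none of the 8 passed in this comparison, beside 0.0173% of all genes. Counting signs alone, 4 members (Ccl2, Ccl3, Ccl6 and Ccl7) were higher in the non-tumour region at both temperatures and 1 (Ccl5) was lower, beside 37.7% and 29% of all genes. Ccl6, Ccl3, Ccl4, Ccl9 and Ccl11 differed by 0.57 or less on the fitted log2 scale, with adjusted p from 0.238 to 0.994.

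The tumour region was also set against the non-tumour region of livers on the same diet. All tested members but Ccl2 were higher in the tumour region at both temperatures (26.6% of all genes), and 5 of them (Ccl3, Ccl4, Ccl5, Ccl6 and Ccl9) without overlap (14.7% of all genes). Ccl3 was the 1 of 8 that passed by limma, beside 0.45% of all genes. It was at 15.2 and 17.8 FPKM in the tumour libraries of 37 and 6 degrees, against 0.462 and 2.72 FPKM in the non-tumour libraries (2.91 ± 0.29, adjusted p = 0.0410). It did not pass when any 1 library other than the cold tumour library was left out (adjusted p = 0.0605 to 0.262), nor with a pseudocount of 0.1, no filter or a minimum mean of 5 FPKM (0.155, 0.144 and 0.0969). Ccl4, at 62.5 and 28.4 FPKM, against 0.239 and 3.52 FPKM, differed by 4.19 ± 0.67 (adjusted p = 0.0873), and passed without the cold tumour library (0.0333).

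Ccl5, Ccl6 and Ccl9 differed by 1.48, 1.55 and 1.68 between these regions, each with a limma adjusted p of 0.0546. With p left unadjusted, 6 of the 8 members were at p under 0.05, all higher, beside 10.1% of all genes in either direction. Ccl2 and Ccl7 were close between the regions at 6 degrees, at 394 FPKM in the tumour region against 411 FPKM in the non-tumour region for Ccl2 and 85.4 against 77.1 FPKM for Ccl7. At 37 degrees they were higher in the tumour region, at 818 against 472 FPKM and 244 against 100 FPKM. With 1 library per combination, a difference of the source effect between temperatures could not be tested. The macrophage score was 2.31 higher in the tumour region, and 2 of the 18 macrophage markers passed (Mpeg1 and Fcgr1, both higher). Relative to the score, Ccl4 was higher in the tumour region (1.88, limma adjusted p = 0.0407), beside 0.00865% of all genes higher. Ccl2 was lower relative to it (-1.94, adjusted p = 0.0263), as were 94.1% of all genes, and neither passed without empirical Bayes moderation.

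**Figure D4:**
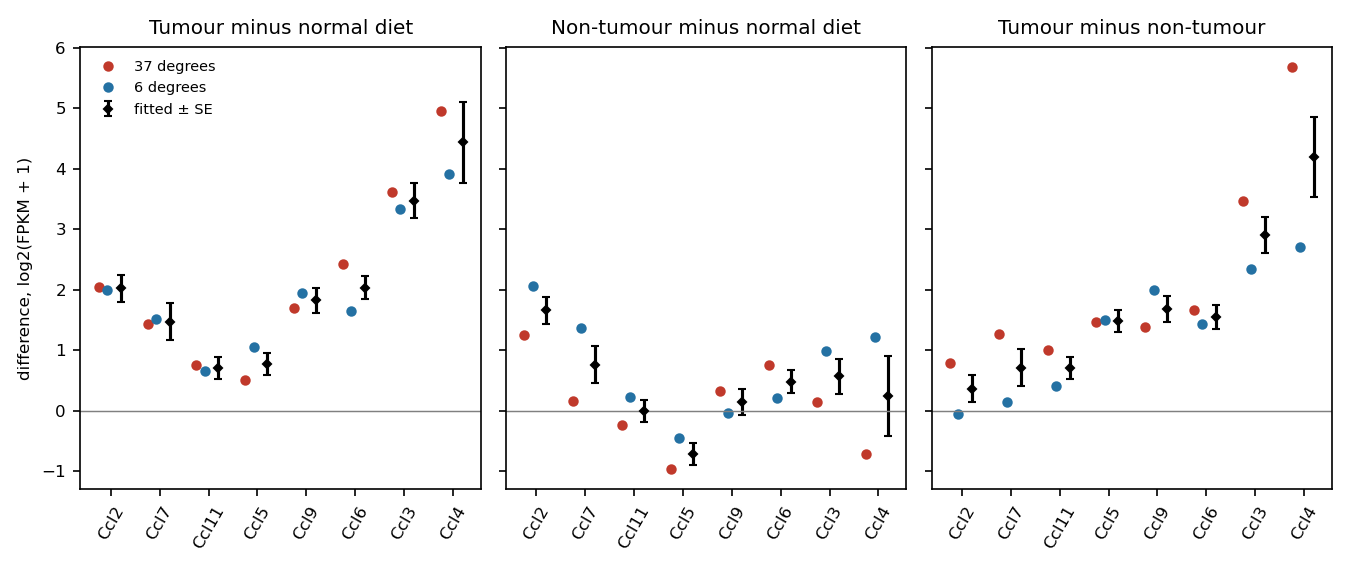
Differences between liver sources on the log2(FPKM + 1) scale (vertical axis) for the 8 tested CC chemokines at 37 degrees (red) and 6 degrees (blue), with the fitted value and its standard error in black. For tumour minus normal diet, all points lie above 0, with Ccl3 and Ccl4 the highest, and for non-tumour minus normal diet the fitted Ccl2 value is the highest at 1.66.

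Across the 6 libraries the members fell into patterns that can be described by Pearson correlations of log2(FPKM + 1), which share libraries and depth and carry no test. Ccl3 and Ccl4 had r = 0.97, Ccl6 and Ccl9 0.94, Ccl3 and Ccl9 0.93, Ccl7 and Ccl11 0.92 and Ccl2 and Ccl7 0.90. Between the groups of neighbours r was low for some pairs, such as Ccl6 with Ccl7 (0.08) and Ccl6 with Ccl11 (-0.08). The genes whose pattern was most like that of Ccl2, among 11557 compared, were Pydc4, Plac8 and Pxdc1 (r = 0.99 each), and those most like Ccl7 were Hspa8, a constitutive heat shock cognate chaperone, Adamts4 and the metallothionein gene Mt2 (r from 0.991 to 0.997). Mt2 was at 1381, 492 and 369 FPKM at 37 degrees, against 369, 358 and 142 FPKM at 6 degrees, with its highest value in the warm tumour library. Mt2 was picked by its correlation with Ccl7, so a likeness of their values adds no support. With 11557 genes and 6 libraries, the nearest genes have a high r by selection. For Ccl11 they were Mpp6, Rps3a1 and 9530052E02Rik.

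For Ccl6 the nearest genes were Bcl2a1b, Plbd1 and Psmg2, and for Ccl9 they were Hpgds, the kinase gene Syk and Arhgap4. Syk was at 1.78, 0.207 and 0.0761 FPKM at 37 degrees, against 4.35, 0.830 and 0.796 FPKM at 6 degrees. It had the same order of temperatures in each source as Ccl9, by whose correlation it was picked. Cytip, Ly6c1 and Hcar2 were nearest to Ccl3, Pdcl3, Uqcrh and Ier3ip1 to Ccl4, and Acot1, Ifi30 and Rgs10 to Ccl5 (r from 0.988 to 0.997). The correlation takes no account of the size of a change. Pdcl3 ranged from 30.3 to 35.5 FPKM over the libraries, while Ccl4 ranged from 0.239 to 62.5 FPKM.

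Among the 14 other CC ligands, 6 reached a mean of 1 FPKM and none of them passed for temperature by limma (2 higher and 1 lower with p unadjusted, beside 20.6% of all genes in either direction). In the tumour region against normal diet 3 of the 6 rose and none fell, beside 6.07% of all genes higher and 3.28% lower. Ccl8, a monocyte attractant whose gene lies beside that of Ccl12, was at 51.5 and 32.1 FPKM in the tumour libraries of 37 and 6 degrees, against 6.58 and 1.95 FPKM on normal diet (3.14 ± 0.33, limma adjusted p = 0.00979). Ccl12, a Ccr2 ligand of mice, was at 14.5 and 4.14 FPKM, against 0.145 and 0.359 FPKM (2.84 ± 0.44, adjusted p = 0.0215). Both genes were highest in the warm tumour library, as were Ccl2, Ccl4, Ccl7 and Ccl11 among the members. Ccl3, Ccl5, Ccl6 and Ccl9 were highest in the cold tumour library. Between 37 and 6 degrees, Ccl8 differed by 0.67, -0.08 and 1.36 on the log2(FPKM + 1) scale in the tumour, non-tumour and normal diet pairs. Ccl12 differed by 1.59, 0.22 and -0.25.

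Ccl19, a Ccr7 ligand that guides dendritic cells and T cells, was second to Ccl2 by mean level among all CC ligands listed (187 FPKM). It was at 283 and 219 FPKM in the tumour region and 228 and 171 FPKM in the non-tumour region, against 120 and 101 FPKM on normal diet, and rose in both (1.17 ± 0.09, adjusted p = 0.00717, and 0.84 ± 0.09, adjusted p = 0.0108, limma). A gene on the other strand, 4930578G10Rik, overlaps Ccl19. Ccl27a also rose in the non-tumour region (0.78 ± 0.14, adjusted p = 0.0416), though reads could be divided between it and its near-identical copy Ccl27b, which was listed at 0.

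Of the 15 receptors, 6 were tested. The decoy and atypical receptors, which take up chemokines without signalling through G proteins, were the more abundant. Ackr2 was at 2.30, 2.77 and 1.56 FPKM in the tumour, non-tumour and normal diet libraries of 37 degrees, against 10.5, 22.1 and 6.99 FPKM at 6 degrees, and fell by 2.02 ± 0.21 on the log2 scale (limma adjusted p = 0.0114). Ackr1 fell by 0.75 ± 0.11 (limma adjusted p = 0.0226). Both moved with the endothelial and macrophage markers, and the part of those cells was not tested. Ccrl2, a receptor that binds chemerin without signalling, was at 85.6, 64.5 and 60.6 FPKM at 37 degrees, against 53.1, 53.4 and 51.1 FPKM at 6 degrees (0.40 ± 0.11, adjusted p = 0.126).

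Between sources, Ackr4, a scavenger of Ccl19 and related ligands, was at 3.83 and 6.26 FPKM in the tumour region and 4.68 and 12.6 FPKM in the non-tumour region of 37 and 6 degrees, against 31.8 and 31.5 FPKM on normal diet. It fell in both (-2.46 ± 0.30, adjusted p = 0.0125, and -1.89 ± 0.30, adjusted p = 0.0277, limma). Ackr1 rose in both (1.26 and 1.34, limma adjusted p = 0.00941 and 0.00915), beside endothelial list medians of 1.22 and 1.94, and the part of endothelial cells was not tested. Ccr2, the receptor of Ccl2, Ccl7 and Ccl12, stood at 0.994, 0.0787 and 0.0138 FPKM at 37 degrees, against 5.91, 0.697 and 0.445 FPKM at 6 degrees.

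Of 22 NF-kB and cytokine regulators listed as upstream of chemokine genes, 21 were tested and none passed for temperature by limma (7 higher and 1 lower with p unadjusted, beside 20.6% of all genes). In the tumour region against normal diet 3 of 21 passed, all higher, beside 6.07% of all genes higher and 9.35% in either direction. With 3 genes, this share is not read as a trait of the list. They were Nfkb1 (0.60, limma adjusted p = 0.0485) and Rela (0.50, adjusted p = 0.0323), which encode NF-kB subunits, and the interleukin-1 receptor gene Il1r1 (0.73, adjusted p = 0.0129). In the non-tumour region 3 of 21 passed, beside 2.98% of all genes higher and 5.56% in either direction: Rela (0.49), Relb (0.71) and Il1r1 (0.69) rose (limma adjusted p = 0.0446, 0.0207 and 0.0173). No regulator passed between the tumour and the non-tumour region (1 higher and 1 lower with p unadjusted), and none fell in any of the comparisons.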

How the data were processed

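RNA sequencing was done on 6 libraries, 1 per combination of 3 liver sources and 2 isolation temperatures. The authors deposited FPKM for 24346 symbols per library. The submitters' processing notes name TopHat2 2.1.1, Bowtie2, Cuffdiff 2.2.1 and the mm10 build, and the sources used here do not give settings, annotation or strand use. Depth was estimated from low FPKM values: 45.1% of 2647 such genes had values in whole-number ratios to their lowest (tolerance 0.02 in log2), and 207 genes of a single annotated transcript set the scale, with quartiles of 1.76e+07 and 1.99e+07 fragments for the normal diet library of 37 degrees. Fragments quoted for a gene come from this estimate and its longest coding transcript, and cover counting only.

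Genes averaging at least 1 FPKM over the libraries were fitted as log2(FPKM + 1) by limma 3.58.1, run in R 4.3.3 (additive source and temperature terms, empirical Bayes with an intensity trend, Benjamini-Hochberg adjustment over 11558 genes, adjusted p under 0.05), leaving out 1307 small RNA symbols. The pseudocount of 1 FPKM makes log2 differences of low genes smaller than their ratios. The model leaves 2 residual degrees of freedom (5.37 after moderation, but 23120 in the fits relative to the macrophage score, where all genes share its noise). The p-values therefore set each difference against departures of these 6 libraries from additivity, which may be technical. Model code was tested on simulated data.

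The members, the ligand, receptor, regulator and marker lists and the tests were chosen with earlier results of these data known. Named genes are the 9 members, for each tested member the 3 genes with the highest correlation, and list genes that passed a test or, for ligands and receptors, averaged at least 5 FPKM. Ccr2 was named outside this rule, after its values were seen, and 1 receptor is not reported here. Alternatives were another pseudocount (0.1), other filters (none, 5 FPKM), quantile or median-ratio rescaling, no trend, no source term, other macrophage scores and each library left out. Fits relative to the macrophage score for the source comparisons, and without moderation, were added after the data were seen.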

Additional observations from a re-analysis of the deposited data

Results flagged for a closer look

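The following differences on the log2(FPKM + 1) scale had opposite signs between sources or temperatures. Each sets 1 library against 1, and the difference between them was not tested. Ccl4 was lower at 37 than at 6 degrees in the non-tumour region by -1.87, opposite to the tumour region and normal diet. Between the non-tumour region and normal diet, Ccl4 differed by -0.722 at 37 degrees and by 1.21 at 6 degrees. The Ccl4 values of these 4 libraries rest on an estimated 2.6 to 44.7 fragments. Ccl9 differed by 0.326 at 37 degrees and -0.0428 at 6 degrees in the same comparison, and Ccl11 by -0.243 and 0.236. Between the tumour and the non-tumour region, Ccl2 differed by 0.793 at 37 degrees and by -0.0602 at 6 degrees.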

How the results depend on the processing

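The labels carry no replicate numbers, so no fit with a replicate number as a term was made; temperature was compared within liver source. No member that passed a comparison changed sign. Uncalled differences did for Ccl4 in temperature (0.59 without either non-tumour library), and near 0 or with 1 library left out for Ccl11, Ccl4 and Ccl9 in the non-tumour region against normal diet and Ccl2 in the tumour against the non-tumour region. Ccl9 was under the filter of 5 FPKM and has no value there. Of the 2 members called for temperature, 0 passed without a filter or without the source term, as for the 593 genes in all (0 under both), and 330 genes passed with a mean of at least 5 FPKM. Leaving out 1 library gave 1 to 2 members and 63 to 475 genes. The members changed, however: without either non-tumour library, Ccl2 and Ccl7 passed and Ccl6 and Ccl11 did not. Without a normal diet or a tumour library, Ccl6 alone passed. For the tumour region against normal diet (6 members, 1081 genes), leaving out 1 library gave 2 to 6 members and 306 to 980 genes; 505 genes passed with no filter and 681 with at least 5 FPKM, and 4 members passed with a pseudocount of 0.1 and with no filter. For the non-tumour region against normal diet (1 member, 643 genes), 0 members and 265 genes passed with no filter, and 0 to 1 members and 0 to 894 genes with 1 library left out. For the tumour against the non-tumour region (1 member, 52 genes), 0 members and 0 genes passed with a pseudocount of 0.1, no filter or at least 5 FPKM, 2 members passed without a trend, and leaving out 1 library gave 0 to 3 members and 0 to 165 genes. The cause of these changes was not tested. A library left alone in its arm was assumed to vary like the others.

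Relative to the macrophage score, 0 members and 0 genes passed in any comparison without moderation. Leaving out 1 library gave 0 to 8 members and 0 to 11462 genes for temperature, 0 to 7 and 0 to 11450 for tumour region against normal diet, 0 to 2 and 0 to 773 for the non-tumour region against normal diet, and 0 to 7 and 0 to 11475 for tumour against non-tumour region. For tumour region against normal diet (1 member), 0 passed with at least 5 FPKM, 2 with quantile normalization, 3 without a trend, 3 with a score of Adgre1, Csf1r, Cd68 and Mpeg1, and 6 with Ptprc. In the same order, 7430, 10694, 10987, 11126 and 11408 genes passed in all, so these member counts say nothing particular to chemokines. For tumour against non-tumour region (2 members) these were 1 with at least 5 FPKM, 4 without a trend, 4 with that score and 7 with Ptprc, beside 7655, 11194, 11339 and 11437 genes in all. For non-tumour region against normal diet (0 members, 2 genes), 2 members passed with Ptprc, and genes numbered 4 with a pseudocount of 0.1, 1 with no filter, 0 with at least 5 FPKM, 33 without a trend, 38 with the 4-gene score and 877 with Ptprc. With no filter, 17975, 17245 and 17542 genes passed for temperature, tumour region against normal diet and tumour against non-tumour region, against 11102, 10535 and 10874 with it.

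With 1 library per group, no spread between replicates was available. Some values under 1 FPKM (Ccl9 and Ccl3 on normal diet and Ccl3 and Ccl4 in the non-tumour region, all at 37 degrees) rest on under 10 estimated fragments.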
